A study of Mus musculus with 8 samples.

Results

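The 7 genes described here make and carry lactate: *Ldha*, *Ldhb* and *Ldhd*, which encode lactate dehydrogenases, *Slc16a1*, *Slc16a3* and *Slc16a7*, which encode the monocarboxylate transporters MCT1, MCT4 and MCT2, and *Bsg*, which encodes basigin. They were taken by name from 4 lists of ERRα ChIP-seq intervals, whatever the distance of an interval from the gene. The lists named 19188 genes in all, including each of these 7, and 70 of the 126927 listed intervals were annotated to these genes. The lists come from WT mice and from ERRα 3SA phospho-mutant mice, in which 3 serines near the amino terminus of ERRα cannot be phosphorylated, with 1 library and 1 list per genotype and tissue.

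All mice were male, of the C57BL/6N strain and 2 to 3 months old. Skeletal muscle was gastrocnemius and soleus, pooled from 5 mice per genotype, and liver was pooled from 2 mice per genotype, with 3 immunoprecipitations joined per library according to the labels. The lists held 25427 intervals in WT muscle, 50647 in 3SA muscle, 21813 in WT liver and 29040 in 3SA liver. An interval is a stretch of genome where the authors' peak caller found more immunoprecipitated than input DNA, and its score is a whole number of at least 30. There are no replicates here, so no error and no p-value accompanies any value, and genotype cannot be told apart from library. The lists hold no read numbers, so the depth behind an interval is unknown. Scores were therefore compared within a list by rank, written as a percentage of that list, in which a smaller value is a stronger interval. The same rank is a smaller percentage of a longer list. Weak intervals differed between the tissues: 33.6% of WT and 35.2% of 3SA muscle intervals had the lowest score of 30, against 0.0688% of WT and 0.461% of 3SA liver intervals. At *Ckm* (muscle creatine kinase) the best interval within 20 kb ranked at 2.16% and 0.685% of the WT and 3SA muscle lists and at 37.6% of the WT liver list, and none was listed in 3SA liver. *Mb* (myoglobin) ranked at 3.72% and 1.54% in WT and 3SA muscle and at 19.0% and 24.9% in WT and 3SA liver. The muscle gene *Acta1* had only a single weak interval, in 3SA muscle (64.8%), and none in WT muscle or in either liver list. *Alb* (albumin) had no interval within 20 kb in any list, and *Apoa1* (apolipoprotein A-I) ranked higher in muscle, at 8.63% and 15.5%, than in liver, at 57.4% and 53.4%, so these genes do not tell the tissue of the liver lists.

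Lactate dehydrogenase interconverts pyruvate and lactate as a tetramer of A (muscle-type) and B (heart-type) subunits, from *Ldha* and *Ldhb*, while *Ldhd* encodes a mitochondrial enzyme that oxidizes D-lactate. MCT1 and MCT2 take up lactate in oxidative cells, MCT4 exports it from glycolytic fibres, and basigin is the chaperone that brings MCT1 and MCT4 to the plasma membrane. ERRα is an orphan nuclear receptor that governs genes of oxidative metabolism and binds the ERR response element (ERRE), TCAAGGTCA.

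The number of these genes with an interval within 20 kb of a transcription start site (TSS) was 5 of 7 in WT muscle, 7 of 7 in 3SA muscle and 6 of 7 in either liver list. Over all genes named in a list the share was 45.1% in WT muscle, 63.5% in 3SA muscle, 39.2% in WT liver and 49.2% in 3SA liver. *Ldha*, *Ldhb*, *Slc16a1*, *Slc16a3* and *Bsg* were near an interval in all 4 lists. The gene *Ldhd* lacked one in WT muscle, and *Slc16a7* was within 20 kb of an interval in 3SA muscle only, at a score of 30. Genes whose best interval lay in the top 5% of the list numbered 3 in WT muscle, 4 in 3SA muscle, 1 in WT liver and 2 in 3SA liver. The same held for 4.09%, 7.17%, 3.47% and 4.49% of all genes, in that order of lists. *Ldha* was the member among the top 5% in every list.

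**Figure D1:**
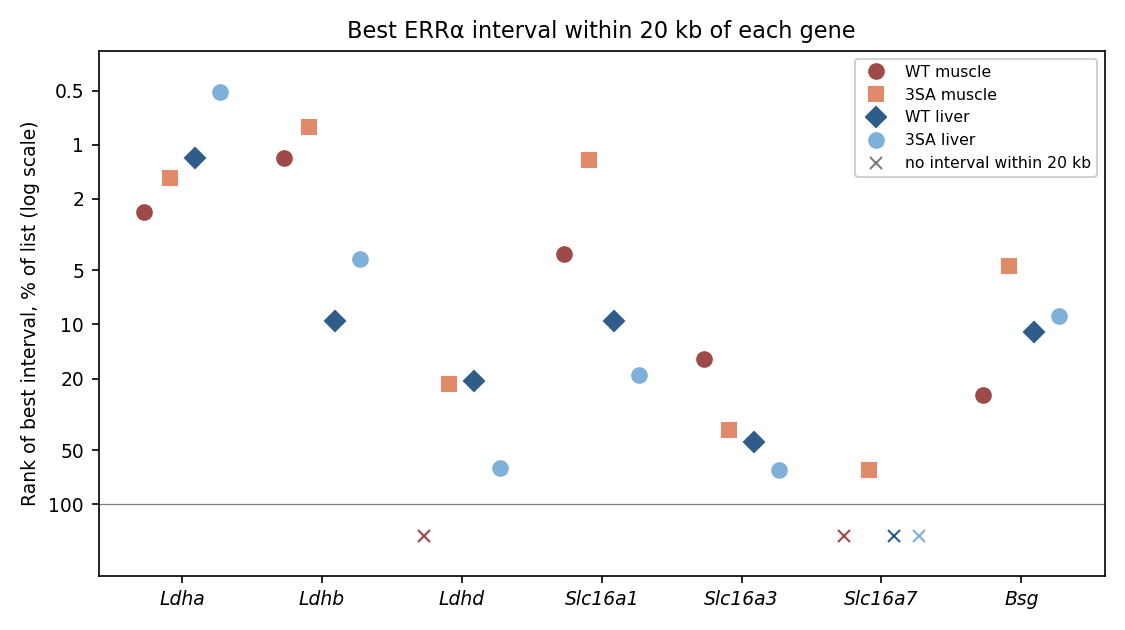
Rank of the strongest ERRα interval within 20 kb of each gene, as a percentage of its list on a log axis that runs from weak (bottom) to strong (top). Each symbol is 1 list, and crosses below the line at 100% mark lists with no such interval. *Ldha* lies between 0.506% and 2.36% in all 4 lists. *Ldhb* and *Slc16a1* rank higher within both muscle lists than within either liver list, and *Slc16a7* has 1 symbol, at 64.8%.

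Of the 70 intervals, 14 were in WT muscle, 21 in 3SA muscle, 16 in WT liver and 19 in 3SA liver. At the lowest score stood 3 of the 14 WT muscle and 8 of the 21 3SA muscle intervals, and none in liver. A score of 100 or more was held by 3, 4, 5 and 8 intervals, in the same order. Over all intervals that score was held by 4.66% in WT muscle, 5.14% in 3SA muscle, 17.3% in WT liver and 20.6% in 3SA liver. Annotated as promoter were 8 of the 70: 3 at *Ldhb*, 3 at *Bsg*, 1 at *Ldhd* and 1 at *Slc16a3*. The share of promoter intervals in the whole lists was not counted, so this is not shown to be few or many.

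**Figure D2:**
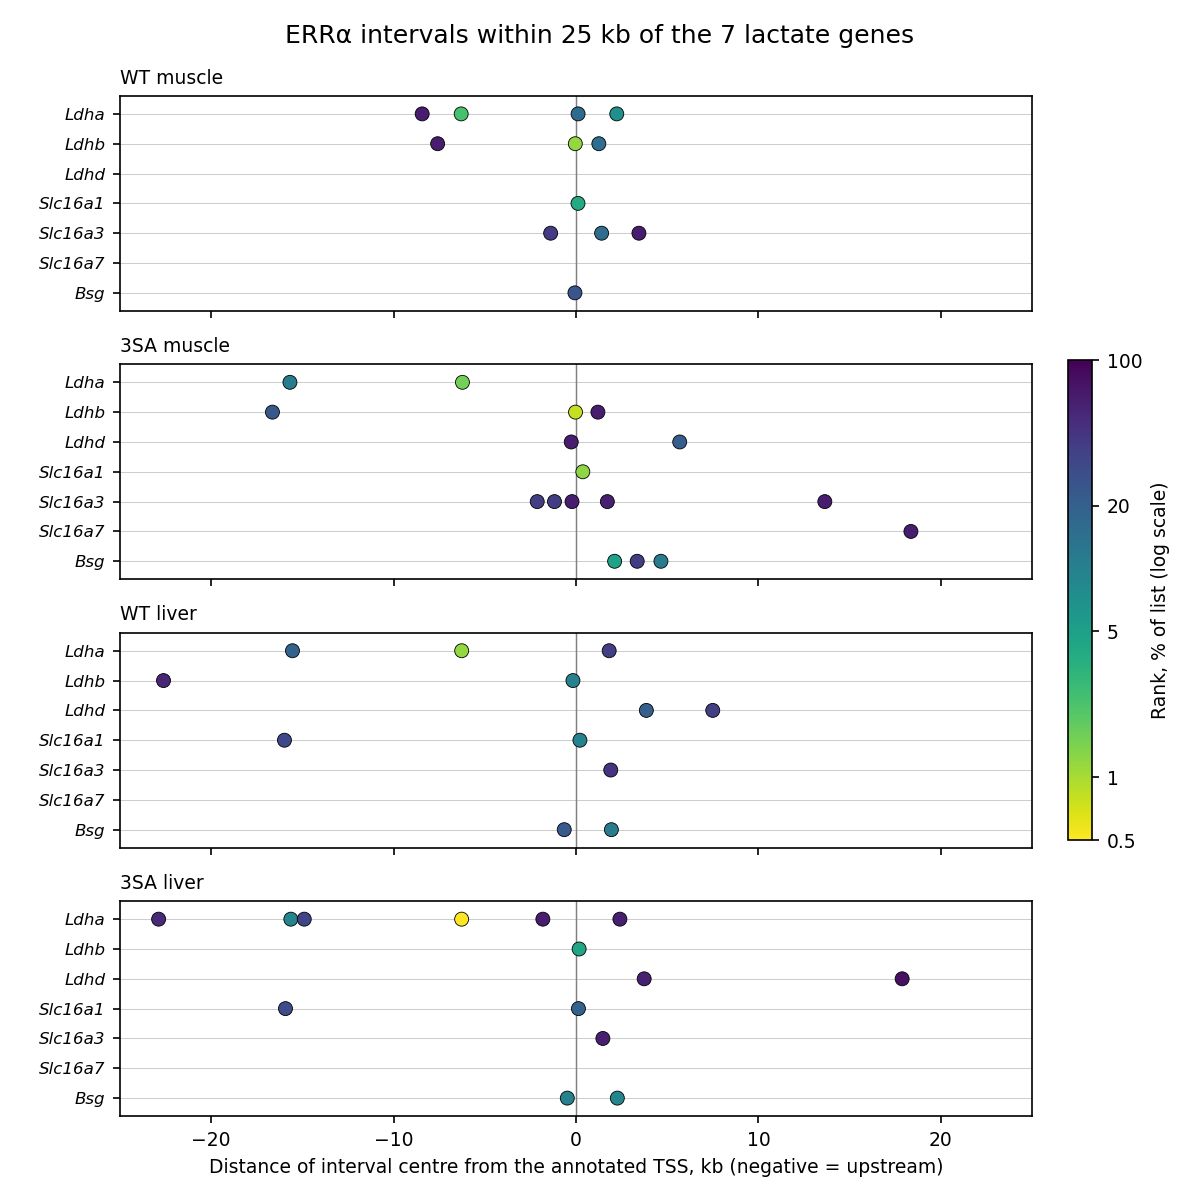
Position of every interval of the 7 genes within 25 kb of the TSS annotated to it, which can differ between intervals of 1 gene, with 1 panel per list. Each point is the centre of 1 interval, coloured by its rank as a percentage of its list (log scale, yellow strongest). The brightest *Ldha* point sits between 6225 and 6295 bp upstream in every panel, whereas *Ldhb* and *Slc16a1* are brightest at the TSS.

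*Ldha*, the muscle-type subunit gene on chromosome 7, was bound most strongly upstream and not at its promoter. The WT muscle interval there covered positions 46839177 to 46839841, 6295 bp upstream of the TSS, with a score of 168 and rank 600 (2.36%). In 3SA muscle it covered 46839278 to 46839881 with a score of 248 and rank 780 (1.54%). In WT liver it reached rank 257 (1.18%), and in 3SA liver, where it was 1261 bp wide, rank 147 (0.506%). The 4 centres lay within 70 bp of one another, and the site was the strongest *Ldha* interval of each list, intergenic in the listed annotation. RefSeq also holds a predicted *Ldha* start at position 46842274, from which the WT muscle centre lies 2765 bp upstream. The middle of the stretch common to all 4 intervals is printed from the plus strand of RefSeq GRCm38.p6, as are all sequences here, with capitals for AGGTCA on either strand, extended to AAGGTCA or TCAAGGTCA where the bases allow. It is shown since it is the only site of these genes in the top 5% of every list.
Ldha upstream site, chr7:46839409-46839708: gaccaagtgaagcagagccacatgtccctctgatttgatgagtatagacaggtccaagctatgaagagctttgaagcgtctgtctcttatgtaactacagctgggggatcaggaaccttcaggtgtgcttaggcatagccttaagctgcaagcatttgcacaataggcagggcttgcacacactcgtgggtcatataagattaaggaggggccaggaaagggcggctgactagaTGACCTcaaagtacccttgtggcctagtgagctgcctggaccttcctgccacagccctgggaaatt

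This window held 1 AGGTCA, on the minus strand at position 46839643, and no longer match. Its nearest match to TCAAGGTCA had 2 mismatches. AGGTCA lay in the central 300 bp of 27.0% of WT muscle, 28.8% of 3SA muscle, 48.7% of WT liver and 51.6% of 3SA liver intervals.

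A farther *Ldha* site was listed in 3 of the 4 lists. Its 3SA muscle interval was centred 15683 bp upstream, with a score of 57 (11.0%). The WT liver interval had a score of 91 (19.0%) and the 3SA liver interval one of 204 (8.94%), with centres 90 bp apart. WT muscle had no interval there, and its nearest one was 7249 bp from the 3SA muscle centre. The sequence common to the 3 intervals is shown because it carries the full ERRE, at position 46830135 on the minus strand (TGACCTTGA on the plus strand).
Farther Ldha site, chr7:46830075-46830374: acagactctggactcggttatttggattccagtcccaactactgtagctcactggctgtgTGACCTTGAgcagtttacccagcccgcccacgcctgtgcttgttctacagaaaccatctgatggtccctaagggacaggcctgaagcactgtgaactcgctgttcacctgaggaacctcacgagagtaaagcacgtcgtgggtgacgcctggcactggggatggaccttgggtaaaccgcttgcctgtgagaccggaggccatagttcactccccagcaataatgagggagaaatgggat

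At the *Ldha* promoter itself only WT muscle had an interval, at positions 46845127 to 46846710. It was centred 114 bp downstream of the TSS on a CpG island and was 1584 bp wide, within the widest 1.04% of the list, although its score of 49 ranked at 16.0%. A further WT muscle interval inside the gene had a score of 73 (7.1%). It was listed 2235 bp downstream of another TSS than that of the promoter interval. From the predicted start at position 46842274 its centre lay 7043 bp downstream and that of the promoter interval 3644 bp. It touched a WT liver interval (37.6%) and a 3SA liver interval (64.3%) that did not touch each other. 3SA muscle had neither of these WT muscle intervals. Of the other *Ldha* intervals, 1 was WT muscle only at the lowest score, and 3 were 3SA liver only with ranks between 34.0% and 65.0%, of which the one 22882 bp upstream lay in an exon of the neighbouring gene *Gtf2h1*. In the last intron of *Ldha*, 1 interval of 3SA muscle and 1 of 3SA liver were annotated to the neighbouring *Ldhc* and are not counted here. The *Ldha* gene had 4 intervals in WT muscle, 2 in 3SA muscle, 3 in WT liver and 6 in 3SA liver.

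*Ldhb*, the heart-type subunit gene on the minus strand of chromosome 6, was bound at its promoter in all 4 lists. The liver intervals there were weaker within their lists than the muscle ones. In muscle the ranks were 301 (1.18%) in WT and 402 (0.794%) in 3SA, with centres 12 bp apart. In liver they were 2091 (9.59%) in WT and 1262 (4.35%) in 3SA. The 3SA liver interval was 1309 bp wide and ran farther into the gene than the WT liver interval of 733 bp, so their centres lay 338 bp apart although the intervals overlapped. The bases just upstream of the TSS at position 142507957 are printed here, since all 4 intervals contained them.
Ldhb promoter, chr6:142507958-142508257: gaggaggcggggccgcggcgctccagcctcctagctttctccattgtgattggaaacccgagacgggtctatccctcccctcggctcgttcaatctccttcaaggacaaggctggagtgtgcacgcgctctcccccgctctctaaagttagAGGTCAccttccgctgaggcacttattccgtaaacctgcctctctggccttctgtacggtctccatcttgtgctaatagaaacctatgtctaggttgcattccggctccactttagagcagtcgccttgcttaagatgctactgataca

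These 300 bases held AGGTCA once, on the plus strand at position 142508109, without a further base of the ERRE before it. Their nearest match to TCAAGGTCA lay elsewhere, as TCAAGGACA, with 1 mismatch. At most 1 mismatch was found in the central 300 bp of 16.9% of WT muscle, 18.2% of 3SA muscle, 37.4% of WT liver and 39.9% of 3SA liver intervals. Intron 1 of *Ldhb* held a second muscle site that was absent from liver, 1253 bp downstream in WT (score 52, 15.2%) and 1201 bp downstream in 3SA (score 30, 64.8%), with AAGGTCA at position 142506645. The remaining 3 *Ldhb* intervals lay between 7585 and 22615 bp upstream and were each in 1 list.

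*Ldhd*, the D-lactate dehydrogenase gene on chromosome 8, had no interval in WT muscle and none with a score of 100 or more elsewhere. Its best-ranked intervals were at 20.7% in WT liver, 21.5% in 3SA muscle and 63.1% in 3SA liver. A single site was shared, by both liver lists, 3857 bp (WT) and 3737 bp (3SA) downstream of the TSS, with AAGGTCA at position 111626499. It lay inside *Ldhd*, which is on the minus strand and ends at position 111625611. Its listed annotation was the end of a transcript, the same one that labelled the intervals 5687 and 7497 bp downstream as 3' UTR. The 3SA muscle promoter interval, 261 bp upstream, had the lowest score. The intervals farther downstream, 5687 bp from the TSS in the 3SA muscle list and 7497 and 17881 bp from it in the WT and 3SA liver lists, overlapped the neighbouring gene *Znrf1*, and the data do not show which gene they concern.

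*Slc16a1*, the MCT1 gene on chromosome 3, was bound at its TSS or just inside the gene in all 4 lists, and the genotypes ranked in opposite order in the 2 tissues. In muscle the rank went from 1032 (4.06%) in WT to 617 (1.22%) in 3SA. In liver it went from 2091 (9.59%) in WT to 5533 (19.1%) in 3SA. As percentages of the lists, the best intervals of the other 4 genes with one in every list kept 1 genotype order in both tissues. For *Ldha* and *Ldhb* this depended on the scale, as given with the sites of all 4 lists. By rank number alone *Bsg* also had opposite orders, from 6260 in WT to 2394 in 3SA muscle but from 2403 to 2597 in liver. The best muscle intervals of *Bsg* and of *Slc16a3* lay at different sites in WT and 3SA. The width at *Slc16a1* differed between genotypes as well. The WT muscle interval of 1695 bp, within the widest 0.783% of its list, began 738 bp before the TSS at position 104638664. The 3SA muscle interval of 717 bp began inside exon 1, 16 bp after the TSS. The liver intervals measured 1115 bp in WT and 1371 bp in 3SA. The listed CpG content of these 4 intervals was between 9.45% and 11.6%. The common stretch in intron 1 is shown for its AAGGTCA on the minus strand at position 104639111, which all 4 intervals contained. The nearest match to TCAAGGTCA in the printed bases had 1 mismatch.
Slc16a1 intron 1, chr3:104638888-104639187: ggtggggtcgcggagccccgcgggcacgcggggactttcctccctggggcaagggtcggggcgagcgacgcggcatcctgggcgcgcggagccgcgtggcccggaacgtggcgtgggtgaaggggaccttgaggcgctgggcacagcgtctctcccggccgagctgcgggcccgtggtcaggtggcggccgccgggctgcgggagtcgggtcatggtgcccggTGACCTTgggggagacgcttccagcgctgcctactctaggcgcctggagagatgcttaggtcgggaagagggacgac

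A liver site upstream of *Slc16a1* held the full ERRE. Its intervals were centred 15984 bp upstream in WT (score 56, 32.6%) and 15927 bp upstream in 3SA (score 68, 30.1%), on a B1 SINE repeat in the listed annotation, and neither muscle list had an interval there. TCAAGGTCA began at position 104622802 on the minus strand, inside the 3SA interval, whereas the WT interval ended within it, at position 104622807. The ERRE with 40 bases to either side was as follows.
Slc16a1 repeat site, chr3:104622762-104622850: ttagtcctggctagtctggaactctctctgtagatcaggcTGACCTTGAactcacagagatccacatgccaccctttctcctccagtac

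The remaining *Slc16a1* intervals were each in 1 list and lay 39144 bp upstream or 31460 to 36913 bp downstream, with ranks between 37.8% and 64.8%.

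*Slc16a3*, the MCT4 gene of glycolytic fibres on chromosome 11, was near an interval in every list, but none reached a score of 100. A site in intron 1 was listed 4 times, at 15.6% in WT muscle, 62.3% in 3SA muscle, 45.2% in WT liver and 64.3% in 3SA liver. The intervals overlapped as a chain whose centres lay 1404, 1718, 1906 and 1474 bp downstream of a listed TSS inside the gene. From the outermost RefSeq start they lay 1987, 2301, 2489 and 2057 bp downstream. Only 131 bases, from position 120950647 to 120950777, belonged to all 4 intervals. None of these bases formed AGGTCA. The WT muscle and 3SA liver intervals reached upstream far enough to include an AAGGTCA at position 120950373, which the other two did not. A second site was in both muscle lists and in neither liver list. It lay 1389 bp in WT (40.2%) and 1180 bp in 3SA (38.7%) upstream of the outermost start. Of the 5 intervals in 3SA muscle, all scored 36 or less. The one listed 13642 bp downstream lay in an exon of the neighbouring gene *Csnk1d*.

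*Slc16a7*, the MCT2 gene on chromosome 10, had 11 intervals, and 10 of them lay more than 20 kb from the listed TSS. The strongest was a liver site 162080 bp upstream in WT (score 128, 12.6%) and 162101 bp upstream in 3SA (score 296, 5.44%), with centres 21 bp apart. A second liver site followed about 4 kb farther out, at 55.7% in WT and 15.5% in 3SA, on an RMER12 long terminal repeat. Neither had a muscle interval. Both are printed, since they are the only *Slc16a7* sites in more than 1 list.
Stronger Slc16a7 site, chr10:125490465-125490764: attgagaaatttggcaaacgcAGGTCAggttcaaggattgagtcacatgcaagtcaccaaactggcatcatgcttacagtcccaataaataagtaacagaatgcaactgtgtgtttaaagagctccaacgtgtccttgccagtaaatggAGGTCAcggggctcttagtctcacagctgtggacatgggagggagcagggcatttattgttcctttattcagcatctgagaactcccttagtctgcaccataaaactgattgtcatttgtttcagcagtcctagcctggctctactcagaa
Weaker Slc16a7 site, chr10:125494467-125494766: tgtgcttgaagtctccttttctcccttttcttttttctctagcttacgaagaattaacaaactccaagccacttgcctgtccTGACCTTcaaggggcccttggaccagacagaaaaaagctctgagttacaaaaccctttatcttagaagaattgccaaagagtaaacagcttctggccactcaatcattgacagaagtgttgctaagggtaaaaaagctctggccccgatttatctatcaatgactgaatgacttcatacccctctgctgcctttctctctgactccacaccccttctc

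The stronger site held AGGTCA at positions 125490486 and 125490614. The weaker one held AAGGTCA at position 125494549 on the minus strand, within a match to TNAAGGTCA. From the outermost RefSeq start of *Slc16a7*, which lies upstream of the listed TSS, the stronger site was 101 kb away, and a 3SA liver interval listed as 59689 bp upstream (53.4%) fell 1362 bp inside the gene. The 4 muscle intervals were in 3SA only, 3 of them at the lowest score, and WT muscle had none.

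*Bsg*, the basigin gene on chromosome 10, was bound at different places in the 2 muscle lists. WT muscle had 1 interval, over the promoter (centre 58 bp upstream, score 42, 24.6%), 1461 bp wide and within the widest 1.48% of the list. 3SA muscle had none there, but 3 inside the gene, of which the strongest lay in intron 1, 2118 bp downstream (score 100, 4.73%). The nearest 3SA centre was 2176 bp from that of WT. Liver had both sites in both genotypes: the promoter at 22.3% in WT and 9.85% in 3SA, and intron 1 at 11.0% in WT and 8.94% in 3SA. The common stretch of the intron site is printed because 3 lists shared it and these 300 bases hold no AGGTCA. The nearest match to TCAAGGTCA in this stretch, TCAGGGTCA, had 1 mismatch.
Bsg intron 1, chr10:79706297-79706596: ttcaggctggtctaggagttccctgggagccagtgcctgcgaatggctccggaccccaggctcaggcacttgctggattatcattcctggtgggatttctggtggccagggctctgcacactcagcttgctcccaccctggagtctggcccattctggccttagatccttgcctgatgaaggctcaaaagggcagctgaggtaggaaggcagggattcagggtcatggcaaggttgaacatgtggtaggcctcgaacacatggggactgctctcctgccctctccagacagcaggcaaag

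AGGTCA was absent from the central 300 bp of all 8 *Bsg* intervals. The promoter intervals held it once, at position 79704067, 189 to 357 bp from their centres, and the 3SA liver intron interval held it at position 79706979, 358 bp from its centre and outside the common stretch.

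**Figure D3:**
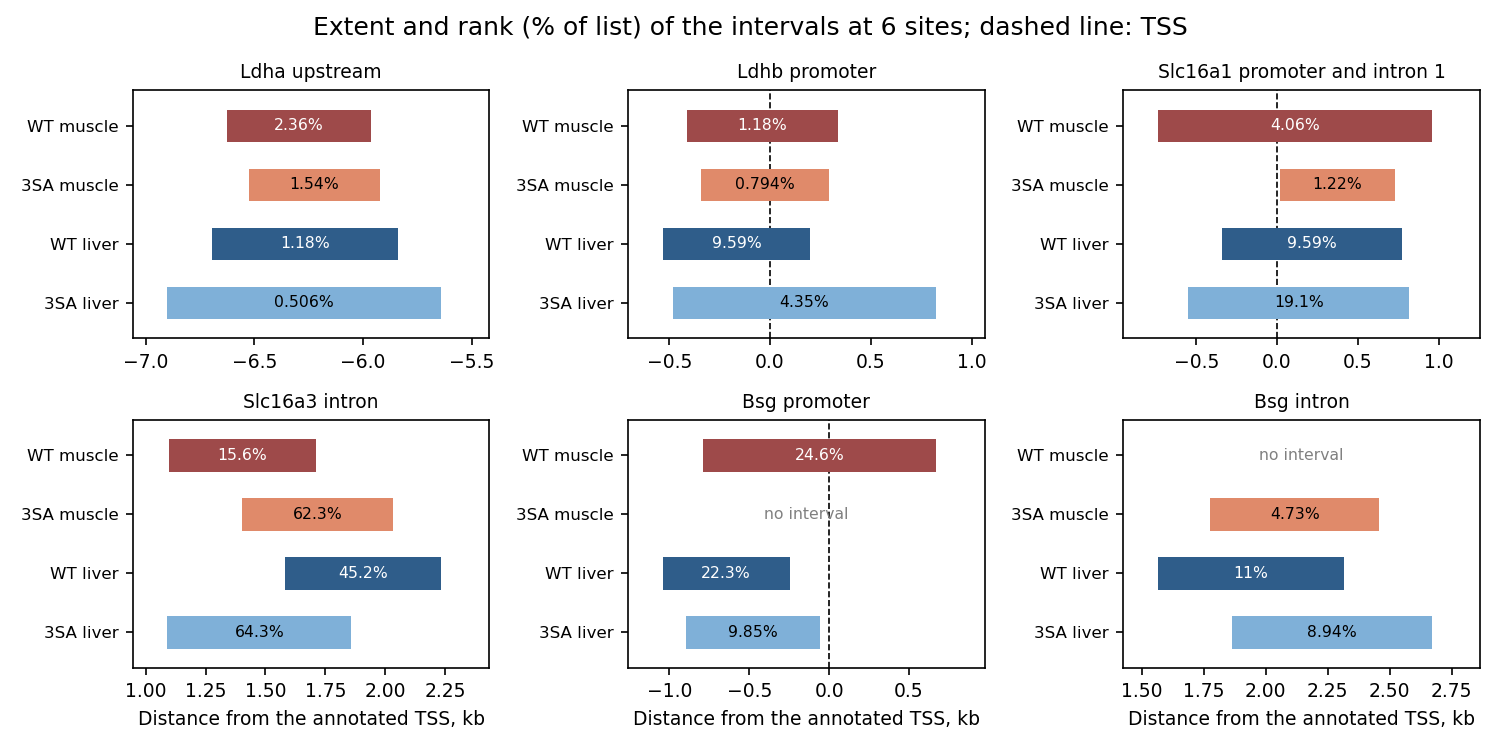
Extent of the intervals at 6 sites along the distance from the annotated TSS in kb, with 1 bar per list and the rank as a percentage of the list on the bar. The dashed line marks the TSS where it lies in view. The *Slc16a1* bar of WT muscle spans the TSS and that of 3SA muscle does not, the *Slc16a3* bars are staggered, and *Bsg* has a promoter bar without an intron bar in WT muscle and the reverse in 3SA muscle.

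Sharing between genotypes was counted where centres lay within 300 bp. In muscle 5 of the 14 WT and 5 of the 21 3SA intervals were shared, against 20.2% and 10.1% of all intervals. In liver 8 of the 16 WT and 8 of the 19 3SA intervals were shared, against 42.9% and 32.2%. By at least 1 shared base the counts were 6 of 14 and 6 of 21 in muscle, where all intervals gave 25.7% and 12.9%, and 11 of 16 and 11 of 19 in liver, where all intervals gave 47.9% and 36.0%. The shared muscle sites by centres were the *Ldha* upstream site, both *Ldhb* sites, the *Slc16a1* TSS and the *Slc16a3* upstream site. By score, all 3 WT muscle intervals with a score of 100 or more were shared, as were 3 of 4 in 3SA muscle, 3 of 5 in WT liver and 6 of 8 in 3SA liver. Among all intervals of that score 82.5%, 68.2%, 87.7% and 82.0% were shared. Of intervals with a score under 50, 1 of 8, 2 of 15, 1 of 7 and 1 of 9 were shared, where all such intervals gave 13.5%, 5.35%, 22.3% and 10.3%.

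Between tissues of 1 genotype, 3 of 14 WT muscle and 3 of 16 WT liver intervals were shared by centres, and 6 of 21 3SA muscle and 6 of 19 3SA liver intervals. The shares over all intervals were 11.7%, 13.6%, 11.5% and 20.1%. By shared bases every list had 6 such intervals, beside 14.6% of all WT muscle, 17.0% of WT liver, 14.4% of 3SA muscle and 25.2% of 3SA liver intervals. *Ldha*, *Ldhb* and *Slc16a1* supplied the 3 WT sites, and 3SA added the farther *Ldha* site, the *Slc16a3* intron and the *Bsg* intron.

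When intervals of any list that touched were joined into sites, the 70 intervals formed 44 sites, of which 4 were in all 4 lists. These were the *Ldha* upstream site, the *Ldhb* promoter, the *Slc16a1* TSS and the *Slc16a3* intron, or 9.09% of the 44, beside 2.58% of all 99244 sites. Another 4 sites were in 3 lists, and 30 were in a single list, among them 13 in 3SA muscle. Set among the 2556 sites called in every list, which removes the difference in list length, 3 of the 4 sites had opposite genotype orders in the 2 tissues. How many of all 2556 sites had opposite orders was not counted, so this is not shown to be particular to these genes. The *Slc16a1* site was stronger in 3SA muscle (18.2%, WT 28.8%) and weaker in 3SA liver (69.3%, WT 41.0%). The *Ldha* site was weaker in 3SA muscle (22.6%, WT 18.2%) and stronger in 3SA liver (5.05%, WT 7.9%). The *Ldhb* promoter was likewise weaker in 3SA muscle (12.7%, WT 9.55%) and stronger in 3SA liver (28.2%, WT 41.0%). In muscle, *Ldha* and *Ldhb* thus changed their genotype order with the scale, having been stronger in 3SA as percentages of the whole lists. The *Slc16a3* intron was weaker in 3SA in both tissues.

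**Figure D4:**
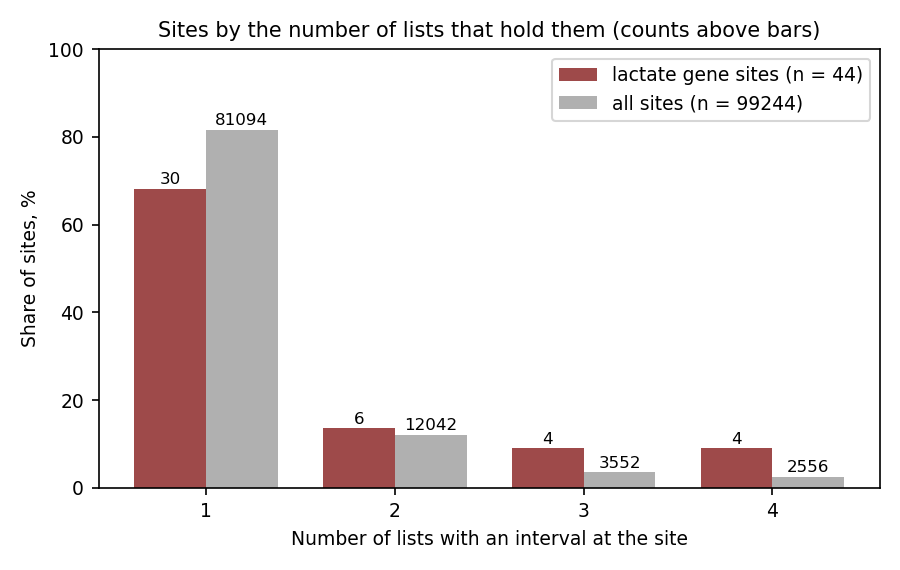
Share of sites by the number of lists with an interval at the site, for the 44 sites of the lactate genes and for all 99244 sites, with counts above the bars. Of the lactate gene sites 30 are in 1 list and 4 in all 4 lists, beside 81.7% and 2.58% of all sites.

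The full ERRE lay in the central 300 bp of none of the 14 intervals in WT muscle, 1 of 21 in 3SA muscle, 2 of 16 in WT liver and 2 of 19 in 3SA liver. Among all intervals TCAAGGTCA was present in 3.92%, 4.28%, 14.6% and 15.2%. These 5 intervals belonged to only 2 sites, the farther *Ldha* site and the *Slc16a1* repeat site, so they do not count as 5 observations. AAGGTCA was present in the centre of 3, 5, 4 and 7 intervals, and in 12.9%, 14.0%, 34.2% and 36.4% of all intervals.

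Other genes of lactate and pyruvate metabolism were counted in the same way. Of 19 other monocarboxylate carriers and lactate genes 7 in WT muscle, 12 in 3SA muscle, 5 in WT liver and 10 in 3SA liver had an interval within 20 kb, and their best intervals reached the top 5% for none, 1, none and 1 of them. The strongest were *Slc16a10*, an aromatic amino acid carrier, in muscle (5.14% in WT, 3.17% in 3SA), and *Slc16a6*, which encodes MCT7, in liver (6.71% in WT, 3.3% in 3SA). Of 16 genes of pyruvate entry into mitochondria 9, 11, 11 and 12 had an interval, with 4, 5, 0 and 3 in the top 5%. They were led in muscle by *Pdk2*, a pyruvate dehydrogenase kinase (0.385% in WT, 0.144% in 3SA), and *Mpc1*, a pyruvate carrier subunit (0.732% in WT, 0.302% in 3SA). Of 20 glycolytic genes 15, 17, 13 and 17 had an interval and 10, 10, 7 and 5 were in the top 5%. The aldolase gene *Aldoa* stood at rank 6, 7, 11 and 10 of the 4 lists, ahead of every member. The median best interval of the lactate genes that had one was at 4.06% in WT muscle, 4.73% in 3SA muscle, 10.3% in WT liver and 14.0% in 3SA liver, and that of glycolytic genes at 2.59%, 2.0%, 4.14% and 9.4%. Over all genes with an interval the medians were 39.1%, 23.7%, 37.6% and 34.0%.

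The genes with the most similar ranks over the 4 lists were found by the sum of absolute differences in log10 rank percentage of the best interval within 20 kb, with 100% where a list had none. For *Ldha* they were *Lzts2* (0.258), *Cep152* (0.364) and *Cpeb3* (0.365). For *Ldhb* they were *Tmem88b* (0.264), *D630024D03Rik* (0.265) and *Platr4* (0.299). *Slc16a1* came closest to *1810026B05Rik* (0.342), *Mylpf* (0.421) and *Grap2* (0.439), and *Bsg* to *Acsl1* (0.178), *Rnf4* (0.18) and *Gm13003* (0.183). For *Slc16a3* they were *Cd300a* (0.0146), *Rab11fip4os1* (0.0838) and *Msi1* (0.0927). For *Ldhd* they were *Mir7001* (0.0909), *1700010B08Rik* (0.139) and *Cdca7* (0.166), none of which had an interval in WT muscle either, so that this list added 0 to their sums.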

How the data were processed

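ChIP DNA was immunoprecipitated with an antibody to ERRα and sequenced beside input DNA, and the 4 input samples hold no values used here. Per the labels and the study's methods, the authors used Trimmomatic 0.36 for trimming, BWA 0.7.12 for mapping to mm10, Picard 2.0.1 for duplicates, MACS2 2.1.1.20160309 for calling peaks against input and HOMER 4.9.1 for annotation. The deposited score is the peak caller's number, with no fixed range. The deposited CpG and GC values are fractions of the interval, printed here as percentages. Distances to the TSS were used in bp as deposited, each from the TSS listed for that interval.

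Tied scores received the best rank. Genes were taken as annotated, and motifs were searched on both strands of RefSeq GRCm38.p6, in which recomputed GC content equalled the listed fraction within 0.002 for every interval. The 7 genes, the comparison lists and the tests were chosen with earlier results of these data known. Named genes were all 7 members, of each comparison list at most the 2 with the best-ranked interval in muscle and in liver, and the 3 most similar genes of members listed in at least 3 lists. *Ckm*, *Acta1*, *Mb*, *Alb* and *Apoa1* were added after the files were seen. The comparison lists held 19, 16 and 20 genes. Alternatives were score minima, equal list lengths, other distances, other rules of sharing, other motifs and worst ranks for ties. The overlap rules, the joining of sites and the search for motifs recovered what had been planted in simulated data. Depth is unknown, so no counting error is printed, and a binomial interval of the rank served only to judge the effect of ties. Python 3.11.15, numpy, pandas and pysam were used. Expression data of the study were not analysed here.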

Additional observations from a re-analysis of the deposited data

Results flagged for a closer look

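At *Slc16a1*, *Ldha* and *Ldhb* the genotypes ranked in opposite order in the 2 tissues on at least 1 scale. The scales were the percentage of the list and the rank among the sites called in all 4 lists. For *Slc16a1*, the log2 ratio of the best interval's rank percentage, 3SA over WT, was -1.74 in muscle (stronger in 3SA) and 0.99 in liver (weaker in 3SA), a difference of 2.73. Among the sites called in all 4 lists, the same difference was 1.42 for *Slc16a1*. It was -0.97 for *Ldha* and -0.95 for *Ldhb*, both weaker in 3SA muscle and stronger in 3SA liver on this scale but stronger in 3SA in both tissues as percentages of the whole lists. With 1 library per group none of these differences was tested. The share of all sites called in 4 lists that had opposite orders was not counted.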

How the results depend on the processing

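No paired analysis was possible because each genotype and tissue has 1 list. Of 110 values recomputed under an alternative, 35 moved, meaning a count by over 1.5 times or a tied rank beyond its binomial interval, and 2 reversed. With a score of at least 50, the intervals fell to 6 in WT muscle, 6 in 3SA muscle, 9 in WT liver and 10 in 3SA liver. The genes within 20 kb then fell to 4 in either muscle list. With a score of at least 100 the intervals fell to 3, 4, 5 and 8, and the genes within 20 kb to 3 in WT and 4 in 3SA muscle. With lists cut to 21813 intervals, WT and 3SA muscle had 12 intervals each, and 5 and 6 genes within 20 kb. Intervals shared between genotypes were 3 in either muscle list and 5 in either liver list with centres within 100 bp, 3 in either muscle list with a score of at least 50 in both, and 13 in 3SA liver within 1000 bp. Between tissues, shared bases or 1000 bp gave 6 in WT muscle and 6 in WT liver. Searching whole intervals left 1 ERRE in WT liver, since the *Slc16a1* interval cuts it. With ties given the worst rank, *Bsg* moved to 37.2% in WT muscle, 5.14% in 3SA muscle and 11.7% in WT liver, *Ldhd* to 22.4% in 3SA muscle, 22.3% in WT liver and 64.2% in 3SA liver, *Slc16a3* to 58.4% in 3SA muscle and 55.6% in WT liver, *Slc16a7* to 100% in 3SA muscle, and *Ldhb* and *Slc16a1* to 10.1% in WT liver. Chosen after seeing the data were 4 alternatives. Distances from the outermost RefSeq start brought *Slc16a7* within 20 kb in 3SA liver, for 7 genes. The 4 sites in all lists stayed at 4 where 1 common stretch was required and fell to 3 with a score of at least 50. The fourth ranked the sites called in all 4 lists among themselves. In muscle the log2 ratio of rank, 3SA over WT, then reversed from -0.62 to 0.32 for *Ldha* and from -0.58 to 0.41 for *Ldhb*. The *Slc16a1* signs held, with values of -0.66 in muscle and 0.76 in liver, as did those of the other sites in liver and of *Slc16a3* in muscle.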
